A study of Mus musculus with 2 samples.

Results

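The 3 chloride transporter genes described here are Slc12a2, Slc12a5 and Slc12a7, 3 of 21938 protein-coding genes annotated in the mouse genome. They were taken by name, each with its gene body and 50 kb of sequence on either side, and their alternative transcription start sites (TSSs) were read separately. The loci held 20 of the 26012 DNase I hypersensitive sites (DHSs) that both libraries of the series shared. The assay was DNase-seq, and the tissue was left cerebral cortex from female mice of B6CASTF1/J, an F1 hybrid strain, at postnatal day 4. There was 1 group with 2 libraries, replicate 1 and replicate 2, which carry different animal numbers and a single donor entry for the strain. No other age, tissue or genotype was set against this group, so the values below describe 1 stage and no test between conditions was possible.

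Slc12a2 encodes NKCC1, which carries sodium, potassium and chloride into the cell and keeps chloride high in immature neurons. Slc12a5 encodes KCC2, a neuron-specific exporter of potassium and chloride. As KCC2 comes to outweigh NKCC1 in early postnatal life in rodents, the chloride gradient across the neuronal membrane turns and GABA changes from a depolarising to a hyperpolarising transmitter. Slc12a7 encodes KCC4, a potassium and chloride exporter activated by cell swelling and best known from kidney and inner ear. KCC2 has a pair of alternative first exons with separate promoters, the upstream one giving the isoform KCC2a and the downstream one KCC2b, the main isoform of the mature cortex.

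DNase I cuts DNA where chromatin is open, and a DHS is a stretch cut more often than its surroundings. The authors' stricter list held 59355 calls in replicate 1 and 46566 calls in replicate 2, and their lenient list 92872 and 81087. Each call carries the authors' signal value, a tag density whose scale the headers do not give. The distinct low values tested, 94 in replicate 1 and 93 in replicate 2, were all whole multiples, within 0.05 of a step, of 0.00467 in replicate 1 and 0.00788 in replicate 2. Were a step 1 tag, the implied depths would be 214 and 127, in units of 1000000 tags. Neither depth is stated, so signal values are ranked within a library and set side by side between libraries. A shared DHS merges calls of the stricter lists that overlap by at least 1 bp and includes both libraries. A promoter DHS lies within 1 kb of the TSS of a protein-coding gene, and all others are called distal. The libraries differed in the share of faint calls: 42.5% of the calls of replicate 1 were under 0.3, against 2.39% of those of replicate 2.

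The tissue label was checked against promoters of cell type markers. Shared promoter DHSs lay at 2 of 5 genes of excitatory neurons (Tbr1 among them), 1 of 4 of interneurons (Gad1), 2 of 4 of radial glia (Pax6 and Hes5) and 1 of 3 of oligodendrocyte precursors (Pdgfra). Each of these shares is below that of all protein-coding genes, 55.7%, so promoter counts do not single out a cell type here. None of 3 astrocyte, 3 microglia and 2 endothelial markers had one, although Cdh5 had a call of 0.416 in replicate 1. Of the 3 markers of choroid plexus and ependyma, Foxj1 had 2.02 in replicate 1 and 9.06 in replicate 2, and Ttr and Aqp1 had no call in the stricter lists. NKCC1 is made by glia and other cell types as well as by neurons, and which cells carried the open Slc12a2 promoter was not tested. In such bulk tissue, fewer cells with an open site and a less open site per cell cannot be told apart.

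All 3 genes had open promoters in both libraries. A shared DHS lay within 1 kb of the TSS in all 3, against 55.7% of all protein-coding genes. Starts within 500 bp of each other were merged into groups, which gave 1 group for Slc12a2, 2 for Slc12a5 and 1 for Slc12a7. Each of the 4 had a shared DHS, against 47.1% of all 28586 TSS groups. Only 15.5% of the 5366 genes with 2 or more TSS groups had a shared DHS at each of them, as Slc12a5 did. Promoters rich in CpG pairs are open in many tissues. The ratio of observed to expected CpG within 500 bp of the TSS was 1.05 at Slc12a2, 0.582 at the KCC2a start, 0.673 at the KCC2b start and 0.745 at Slc12a7, against a median of 0.464 over the 28586 groups. Of the 11573 TSS groups with a ratio of 0.6 or more, 89.6% had a shared DHS, and 3 of the 4 starts belong to that class. The part of CpG content in the open promoters was not tested.

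The promoter of the importer Slc12a2 (ENSMUSG00000024597.11, plus strand, chr18:57878678-57946821 in mm10) was the strongest of the 3. Its signal value was 1.71 in replicate 1 and 5.54 in replicate 2, at percentiles 57.4 and 65.3 of the genes with a promoter call. The medians of those genes were 1.56 in replicate 1 (12512 genes) and 4.09 in replicate 2 (13203 genes). If a step is 1 tag, exact 95% Poisson intervals run from 1.54 to 1.90 and from 5.14 to 5.96. They cover counting error only. Both libraries thus placed this gene somewhat above the middle of open promoters.

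Slc12a5 (ENSMUSG00000017740.17, plus strand, chr2:164960802-164999731) had weaker promoters. The KCC2b start, at 164967983 to 164968239, had signal values of 1.32 (1.17 to 1.48) in replicate 1 and 2.83 (2.54 to 3.14) in replicate 2. The KCC2a start, at 164960824 to 164960846 and 7159 bp upstream, had 1.15 (1.01 to 1.31) in replicate 1 and 1.74 (1.52 to 1.99) in replicate 2. The KCC2b start was the higher of the pair in each library, but the counting intervals of replicate 1 overlap and those of replicate 2 do not. As a gene, Slc12a5 stood at percentile 36.8 in replicate 1 and 34.0 in replicate 2.

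Slc12a7 (ENSMUSG00000017756.9, plus strand, chr13:73733094-73816754) had the weakest promoter. Its signal value was 0.743 (0.632 to 0.867) in replicate 1 and 0.867 (0.712 to 1.04) in replicate 2, at percentiles 8.74 and 4.63. The order Slc12a2, KCC2b start, KCC2a start, Slc12a7 was thus the same in both libraries, and all neighbours in it except the KCC2 pair in replicate 1 had separate counting intervals. With 2 libraries of 1 group, the spread between animals cannot be tested. The ratio of replicate 2 to replicate 1 followed the same order, at 3.23 for Slc12a2, 2.15 for the KCC2b start, 1.51 for the KCC2a start and 1.17 for Slc12a7. Over all genes with a shared promoter DHS the median of this ratio was 2.74, with quartiles of 2.13 and 3.45. The weak promoters thus stood lower against other genes in replicate 2 than in replicate 1.

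**Figure D1:**
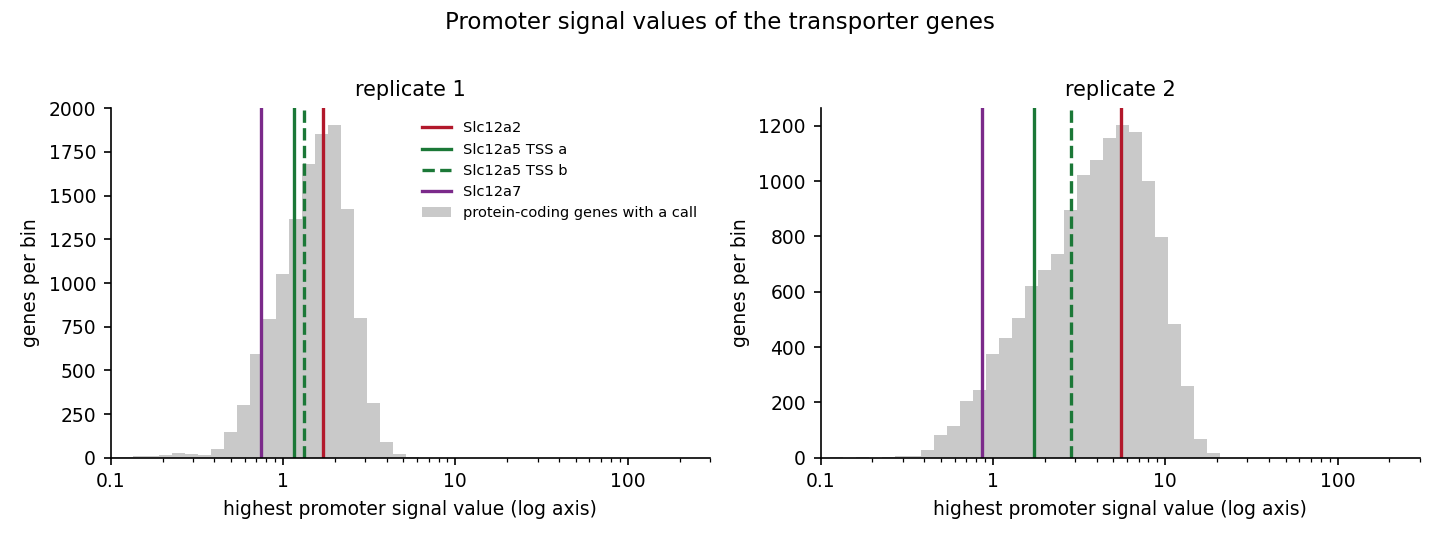
Histograms of the highest promoter signal value (log axis) of protein-coding genes with a promoter call, for each library, with lines for the 4 TSS groups of the 3 transporters (TSS a, KCC2a; TSS b, KCC2b). Slc12a2 lies at 1.71 and 5.54 near the peak of the histogram, the Slc12a5 starts below it, and Slc12a7 at 0.743 and 0.867 in the lower tail.

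The breadth of open chromatin gave a partly different order. The authors' false discovery rate of the cut rate is listed for bases where it is under 0.05. Within 1 kb of the Slc12a2 TSS, 1910 bases were listed in replicate 1 and 1915 in replicate 2, nearly the whole window, at percentiles 98.9 and 98.7 of all TSS groups. The KCC2b start had 1267 and 1260 listed bases, at percentiles 87.7 and 85.2. The KCC2a start had 636 and 631, at percentiles 59.8 and 56.4. Slc12a7 had 683 in replicate 1 and 914 in replicate 2, at percentiles 61.8 and 69.5, and the medians of all groups were 295 and 402. Slc12a7 thus had more listed bases than the KCC2a start, although its peak was lower. At a false discovery rate under 0.001 that order turned, with 243 and 224 bases at Slc12a7 against 339 and 534 at the KCC2a start.

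**Figure D2:**
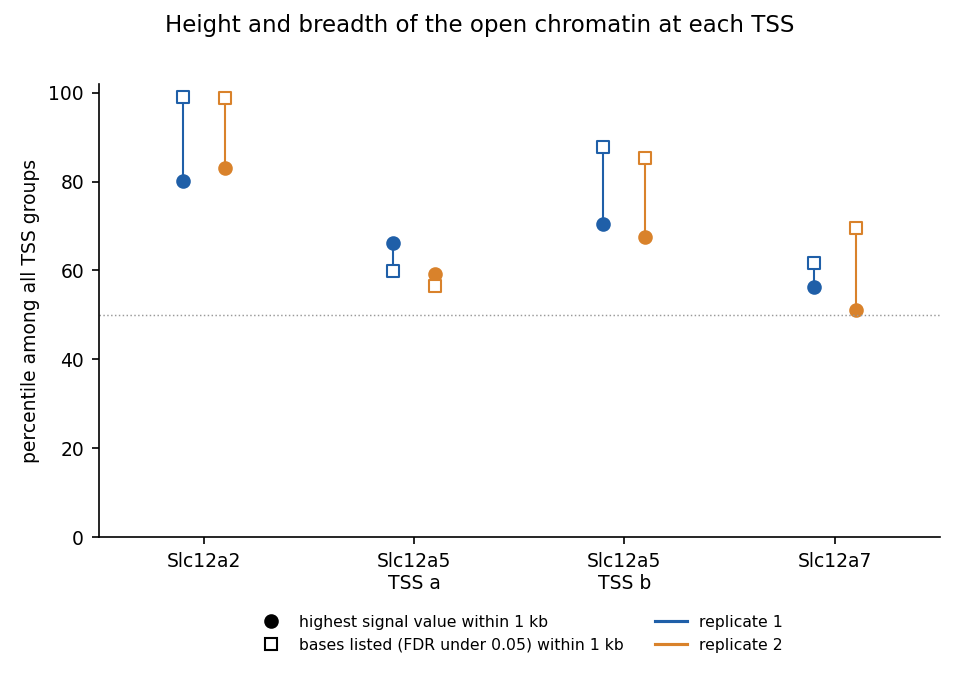
Percentile among all 28586 TSS groups (starts without a call rank lowest in height) of the highest signal value within 1 kb (circles) and of the number of bases listed under a false discovery rate of 0.05 within 1 kb (squares), per library. At Slc12a2 the height is at percentiles 80.2 and 83.0 and the breadth at 98.9 and 98.7, while at the KCC2a start (TSS a) the height is at 66.1 and 59.1 and the breadth at 59.8 and 56.4.

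Part of the breadth at Slc12a2 came from a second DHS on the other side of the TSS. The stronger one was 460 bp wide and ended 278 bp upstream of the TSS, with 7 footprints in each library, of which 4 in each overlapped. The second was 923 bp wide, began 120 bp downstream and reached over the first exon, at 0.649 in replicate 1 and 1.43 in replicate 2. It had no footprint in either library, which held for 4.21% of promoter DHSs and 3.03% of all shared DHSs. GC content was 77.3% around this TSS, at percentile 99.7 of all TSS groups, against a median of 53.7%, and its part in these values was not tested. The other annotated start of Slc12a2, an internal one at 57927205 outside the basic set, had no call in any list.

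Start groups made up only of transcripts outside the basic annotation had no call in the stricter lists. Of the 4 start groups of Slc12a5 in the full annotation, the internal ones at 164982437 and 164996591 had no stricter call, and the second had a lenient call of 0.922 in replicate 2. Of the 7 start groups of Slc12a7, only the main one at 73763697 had a stricter call. The most upstream, at 73733094, had a lenient call of 0.583 in replicate 2. The remaining 5 lie inside the gene and had none.

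The Slc12a5 locus held the most distal DHSs of the 3. Its stretch of 139 kb held 13 shared DHSs, 8 of them distal, which is 57.6 per Mb. That count was at percentile 99.5 and that density at percentile 99.3 of all protein-coding loci, and 135 of the 21938 loci (0.615%) had 8 or more. Among the 8, only the 3 intronic ones had a Slc12a5 start as the nearest TSS of a protein-coding gene. The others lay nearest to a start of Zfp335, Mmp9 or Ncoa5, so the count describes the stretch and not Slc12a5 alone. The Slc12a2 locus (168 kb) and the Slc12a7 locus (184 kb) each held 1 distal shared DHS, at 5.95 and 5.44 per Mb, against medians of 1 DHS and 5.26 per Mb over all loci. In the lenient lists these loci held 2 and 4, with flanks of 10 kb 0 and 0, and in replicate 2 alone 2 and 2. Bases with a false discovery rate under 0.05 numbered 66962 and 95509 per Mb in the Slc12a5 locus in replicates 1 and 2. They numbered 14749 and 16855 per Mb in the Slc12a2 locus and 13890 and 18453 per Mb in the Slc12a7 locus. The whole genome, sequence far from genes included, had 12013 and 10566 per Mb, and no value over all gene loci was computed.

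Of the 8 distal DHSs of the Slc12a5 locus, 2 were very faint. They lay 83.0 and 84.3 kb downstream of the KCC2a start with 0.276 and 0.219 in replicate 1 and 0.134 and 0.252 in replicate 2. All 5 calls of replicate 1 and all 6 of replicate 2 under 0.3 in the 3 loci lay in this stretch beyond the neighbouring gene Ncoa5. Without calls under 0.3, Slc12a5 kept 6 distal DHSs, at percentile 98.8 of the count and 98.4 of the density. With the stronger 50% of the calls it had 4, and replicate 2 alone gave 19 distal sites and replicate 1 alone 11. The locus also takes in other genes: its promoter DHSs include 1 of Zfp335 (3.13 and 6.81) and 2 of Ncoa5 (the stronger 2.93 and 10.1), all but the weaker Ncoa5 site above the Slc12a5 promoters in both libraries.

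**Figure D3:**
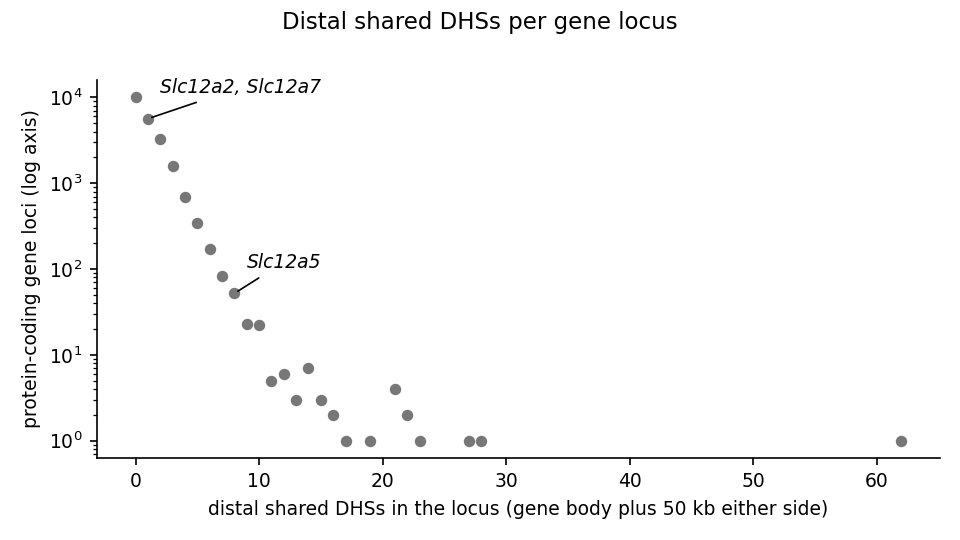
Number of protein-coding gene loci (log axis) by the number of distal shared DHSs in the locus, each point 1 number of DHSs, with the transporter loci marked. Slc12a5 has 8, in the upper tail, and Slc12a2 and Slc12a7 have 1 each, the median over all loci.

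Inside Slc12a5, 3 intronic DHSs lay near the KCC2 starts. The first, centred 1.16 kb downstream of the KCC2a start, had 1.15 in replicate 1 and 1.89 in replicate 2. The second, at 3.89 kb, had 1.03 and 2.74, and the third, at 10.3 kb, had 0.990 and 1.40. The first and second lie between the KCC2a and KCC2b starts and the third lies in sequence beyond the KCC2b start. Together with the promoters, the 5′ part of Slc12a5 thus held 5 shared DHSs, and the rest of the gene body held none. Replicate 2 alone had 4 calls further along the gene, centred 26.0 to 29.1 kb from the KCC2a start, with values of 0.339 to 0.402. Upstream, the distal DHS with the highest geometric mean of the locus, at 1.44 and 2.88, lay at -7.37 kb from the KCC2a start in Mmp9, the gene of a matrix metalloproteinase whose own promoter had no call. The next, at 1.23 and 2.99 and so the higher in replicate 2, was intergenic and lay at -36.2 kb.

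**Figure D4:**
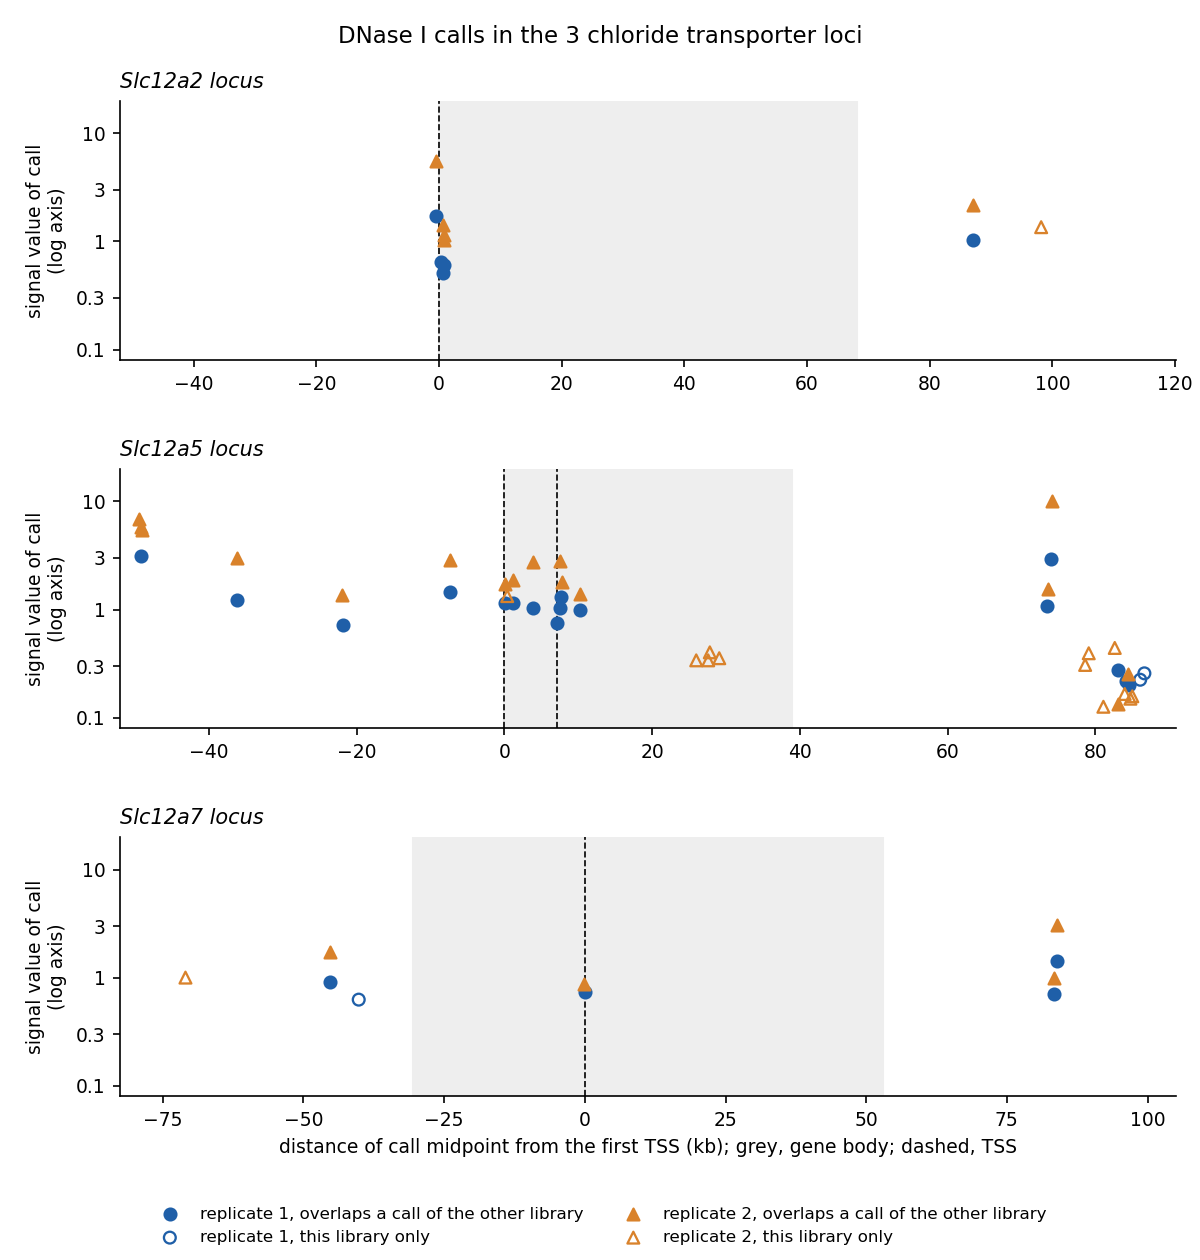
Signal value (log axis) of every call of the stricter lists against the distance of its midpoint from the first basic TSS, for the 3 loci. Filled symbols overlap a call of the other library and open ones do not; grey marks the gene body and dashed lines the TSS groups. The calls of Slc12a5 gather at its 5′ end, where the strongest call of each shared DHS has 0.990 to 2.83, while the calls under 0.3 lie beyond its 3′ end.

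The starts of KCC2a and KCC2b are shown by the sequence just upstream of each, up to the first annotated exon, since these hold the proximal promoters. Sequences are those of the mm10 reference, 5′ to 3′ on the plus strand, and not of the other parental strain. In the KCC2a promoter (chr2:164960741-164960801), capitals mark bases that lay in footprints of both libraries. In the KCC2b promoter (chr2:164967921-164967982), capitals mark the E-box CACGTG, the site of the factors USF1 and USF2, which lies just before the first KCC2b start.
KCC2a promoter: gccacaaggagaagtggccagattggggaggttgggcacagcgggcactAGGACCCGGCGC
KCC2b promoter: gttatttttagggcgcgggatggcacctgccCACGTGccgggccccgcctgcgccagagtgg
The DHS at the KCC2a start held 5 footprints in replicate 1 and 7 in replicate 2, and that at the KCC2b start 5 and 12. The E-box had no footprint in either library, and it occurs in 12.7% of all promoter DHSs. An E-box also lay at the Slc12a7 TSS, again without a footprint. The SP letters GGGCGG, searched on both strands like all consensus sequences here, occurred at both Slc12a5 starts and in 75.4% of promoter DHSs. Neither of the EGR sequences GCGTGGGCG and GCGGGGGCG, the sites of the family of EGR4, had an exact match in the 20 DHSs. Of these, 10 are promoter and 10 distal DHSs. The sequences occur in 2.02% and 8.61% of all promoter DHSs and in 0.508% and 1.39% of all distal ones. Matches with mismatches were not searched for them.

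The silencer element RE1 is the site of REST, a repressor that keeps neuronal genes off in other cells. A match to its consensus with 1 mismatch lay in the DHS of the KCC2b start, downstream of that start in the intron, at chr2:164968653-164968669 on the minus strand. It is shown in capitals in its surroundings (chr2:164968593-164968729), read on the plus strand.
RE1 match of Slc12a5: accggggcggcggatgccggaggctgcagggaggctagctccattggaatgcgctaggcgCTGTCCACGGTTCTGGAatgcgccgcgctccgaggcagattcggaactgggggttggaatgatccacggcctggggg
A footprint of replicate 1, at 164968654 to 164968664, overlapped the match, and none of replicate 2 did. Such matches occurred in 2 of the 20 DHSs of the loci, the other in the Zfp335 promoter, against 2.21% of promoter and 1.20% of distal DHSs in the genome. With up to 2 mismatches, RE1 matches lay in 2 of 10 promoter and 1 of 10 distal DHSs of the loci. The shares in the genome at that limit were 19.5% of promoter and 11.2% of distal DHSs. No exact match was found in the 20 DHSs.

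The intronic DHS between the KCC2 starts (chr2:164964581-164964840) was the only one of the 20 with exact matches to the RFX consensus, which is GTTGCC, any 2 bases and GG. It held 2 of them, shown in capitals. Thus 1 of the 10 distal and 0 of the 10 promoter DHSs of the loci held a match. The shares in the genome were 2.86% of distal and 3.92% of promoter DHSs.
Intronic DHS of Slc12a5: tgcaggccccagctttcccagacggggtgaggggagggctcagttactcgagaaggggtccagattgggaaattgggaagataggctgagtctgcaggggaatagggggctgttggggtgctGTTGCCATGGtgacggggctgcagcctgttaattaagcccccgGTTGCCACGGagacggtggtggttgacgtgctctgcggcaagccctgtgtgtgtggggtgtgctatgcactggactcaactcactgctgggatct
The first match overlapped a footprint of replicate 2, and the second overlapped a footprint of each library. With 1 mismatch allowed the RFX consensus was found in 11 of the 20 DHSs, against 46.4% of promoter and 26.5% of distal DHSs. RFX factors are known as regulators of ciliary and neuronal genes. This DHS held 2 footprints in replicate 1 and 6 in replicate 2.

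Long footprints that overlapped between the libraries lay in 2 of the 3 upstream distal DHSs, and also elsewhere in the loci. The Slc12a2 distal DHS held one of 29 bp in replicate 1 and 31 bp in replicate 2. In the same order, a Nkd2 promoter DHS held one of 39 and 43 bp and the Slc12a7 distal DHS one of 29 and 34 bp. Those upstream of Slc12a5 are shown for the DHS in Mmp9 (the intronic stretch chr2:164953415-164953518) and the intergenic one upstream (chr2:164924561-164924760), with bases in footprints of both libraries in capitals.
Mmp9 DHS: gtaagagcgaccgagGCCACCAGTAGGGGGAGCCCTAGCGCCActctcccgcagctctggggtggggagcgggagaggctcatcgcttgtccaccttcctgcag
Upstream DHS: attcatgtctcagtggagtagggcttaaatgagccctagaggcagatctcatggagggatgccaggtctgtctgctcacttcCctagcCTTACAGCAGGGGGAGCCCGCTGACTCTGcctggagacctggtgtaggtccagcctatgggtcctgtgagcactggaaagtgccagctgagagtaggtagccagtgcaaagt
The protected bases of the Mmp9 DHS hold a match with 1 mismatch to the consensus of CTCF, the factor that marks many chromatin boundaries. The upstream DHS had none at that limit. CTCF matches with up to 1 mismatch lay in 3 of the 20 DHSs, against 46.2% of distal and 10.2% of promoter DHSs, and each of the 3 overlapped footprints in both libraries. None of the 20, which are 10 distal and 10 promoter DHSs, had an exact match, against 19.0% of all distal and 1.54% of all promoter DHSs.

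The third CTCF match was in the single distal DHS of the Slc12a7 locus (chr13:73718381-73718580), shown with the bases in footprints of both libraries in capitals. The Slc12a7 promoter (chr13:73763498-73763659, upstream of the annotated exons) is shown beside it with the SP letters in capitals on either strand.
Slc12a7 distal DHS: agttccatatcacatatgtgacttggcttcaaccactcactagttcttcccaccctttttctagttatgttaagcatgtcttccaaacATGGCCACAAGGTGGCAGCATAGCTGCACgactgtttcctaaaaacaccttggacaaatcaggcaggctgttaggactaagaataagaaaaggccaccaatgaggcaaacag
Slc12a7 promoter: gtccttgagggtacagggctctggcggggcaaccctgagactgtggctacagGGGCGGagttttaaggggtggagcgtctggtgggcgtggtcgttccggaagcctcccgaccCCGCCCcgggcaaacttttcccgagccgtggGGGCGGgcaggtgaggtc
The distal DHS had 0.915 in replicate 1 and 1.73 in replicate 2, with 1 and 3 footprints. The promoter DHS, with 6 SP matches in all, had 3 footprints in replicate 1 and 4 in replicate 2, and none of them overlapped between the libraries. Of the 2 promoter DHSs of the neighbour Nkd2, the stronger had 1.44 and 3.06 and so stood above the Slc12a7 promoter in both libraries. In the lenient lists, the locus gained 2 shared sites with exact CTCF matches, with values of 0.626 and 0.544 at one and 0.574 and 0.756 at the other in replicates 1 and 2.

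At Slc12a2 the single distal DHS was intergenic, 87.0 kb downstream of the TSS and beyond the end of the gene. Its signal values were 1.02 in replicate 1 and 2.15 in replicate 2, with 3 footprints in replicate 1 and 5 in replicate 2. A second site at 98.2 kb had a stricter call only in replicate 2, at 1.35, and a lenient call of 0.710 in replicate 1. The body of Slc12a2 beyond the DHS at its first exon was without stricter calls in both libraries. The SP letters occurred in both promoter DHSs of Slc12a2, and none of the 3 DHSs of the locus held an exact match to another consensus sequence.

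Signal values of the libraries ran together at these loci. Over the 20 DHSs, the signal values of replicates 1 and 2 had a Pearson r of 0.959 and a Spearman rho of 0.938 on points that share libraries and widths, against 0.909 and 0.907 over all shared DHSs. The ratio of replicate 2 to replicate 1 had a median of 1.95 (range 0.486 to 3.43), against 2.13 over all shared DHSs. Of the calls of replicate 1 in the loci, 25 of 28 (89.3%, exact 95% interval 71.8 to 97.7) met one of replicate 2, against 48.1% in the genome. Of the calls of replicate 2, 25 of 39 did (64.1%, 47.2 to 78.8), against 60.7%. Some calls of a library overlap each other and meet the same call of the other library. The intervals treat calls as independent and can therefore be too narrow. With a reciprocal overlap of 50% the shares in the loci were 57.1% and 41.0%. Only 5 of the 28 calls of replicate 1 were under 0.3, against 42.5% of its calls in the genome, and the part of this mix in the shares was not tested. The unmatched calls of replicate 2 were mostly in the Slc12a5 locus, 12 of 14, with a median value of 0.339. The shared DHSs of the loci held 59 footprints in replicate 1 and 90 in replicate 2, or 7.96 and 12.1 per kb, against 9.14 and 13.2 per kb in all shared DHSs. Of those footprints, 61.0% (47.4 to 73.5) of replicate 1 and 38.9% (28.8 to 49.7) of replicate 2 overlapped a footprint of the other library, against 61.4% and 39.9%.

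Most genes that act with the 3 transporters also had open promoters. Over 5 lists, 32 of 41 genes (78.0%) had a shared promoter DHS, against 55.7% of all genes. The closest relatives had the fewest: 2 of 6 other cation-chloride cotransporter genes had one, among them Slc12a9 (1.90 and 5.38 in replicates 1 and 2). Slc12a1 and Slc12a3, the cotransporters of the kidney tubule, had no call, and Slc12a4, which encodes KCC1, and Slc12a8 had a stricter call in replicate 2 only, at 1.32 and 0.937, and lenient calls of 0.705 and 0.462 in replicate 1.

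Of the 11 genes in the list of kinases, phosphatases and associated proteins that act on the cotransporters, 9 had a shared promoter DHS. The highest mean percentiles over the libraries were those of Ppp3ca, a catalytic subunit of calcineurin (3.19 and 14.4), and Oxsr1 (2.61 and 8.47), a kinase that phosphorylates the cotransporters downstream of WNK kinases. In replicate 2 alone, another gene of the list stood above Oxsr1. Wnk3 and Wnk4 had no stricter call. All 10 transcriptional and protein partners had one, with the highest mean percentiles over the libraries at Ntrk2, the receptor of BDNF (1.88 and 6.65), and Ckb, the brain creatine kinase (2.02 and 5.67), although Usf1 stood above Ckb in replicate 2 at 6.22. Rest, at 1.01 and 1.15, and Egr4, at 1.02 and 3.51, encode factors named above. Rest stood low in both libraries, at percentiles 20.7 and 9.24.

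Among 9 genes of other chloride and bicarbonate routes, 8 had a shared promoter DHS, led in mean percentile by Lrrc8a, a subunit of the volume-regulated anion channel (3.20 and 11.9), and Slc4a8, a sodium-driven bicarbonate transporter (2.32 and 6.92). Ano2, a calcium-activated chloride channel, had no stricter call. Of 5 sodium pump subunits, which keep up the ion gradients that drive cotransport, 3 had one, among them Atp1b1 (1.75 and 6.69), which encodes a beta subunit.

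In promoter percentile over the 2 libraries, the list genes nearest to Slc12a2 were Usf2 (1.63 and 5.54) and Usf1 (1.78 and 6.22), those nearest to Slc12a5 were Clcn2 (1.40 and 3.17) and Neto2 (1.25 and 3.69), and those nearest to Slc12a7 were Slc4a10 (0.831 and 0.961) and Prkcd (0.766 and 1.36). The distance is Euclidean over 2 values a gene, so it ranks likeness of height only. The importer gene stood above the median of the 32 to 36 list genes with a call in both libraries, where the median percentiles were 53.5 in replicate 1 and 47.1 in replicate 2. The exporter genes Slc12a5 and Slc12a7 stood below it in both.

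**Figure D5:**
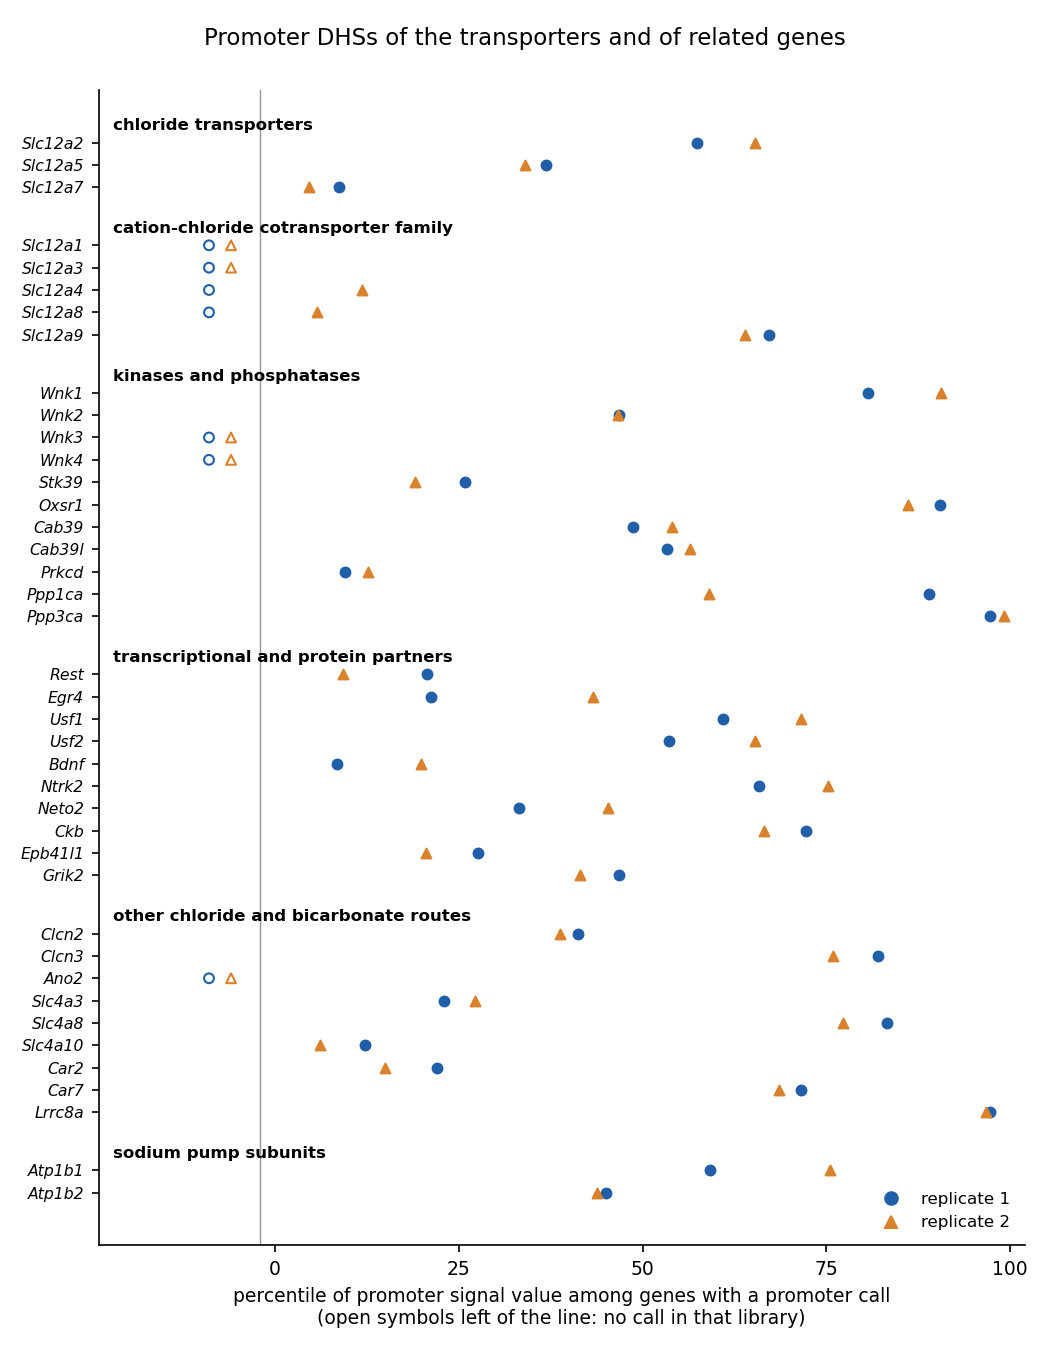
Percentile of the promoter signal value among protein-coding genes with a promoter call, for the 3 transporters and 37 genes of the 5 lists, in replicate 1 (circles) and replicate 2 (triangles); open symbols at the left mark genes with no call in that library. Slc12a2 lies at 57.4 and 65.3, Slc12a5 at 36.8 and 34.0 and Slc12a7 at 8.74 and 4.63, and 30 of the 37 list genes shown have both symbols filled.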

How the data were processed

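DNase-seq libraries of 2 animals (replicates 1 and 2) were analysed. The authors' deposited files are in mm10 and were made per library, per the file headers. Aligner, caller and versions were not given in the sources used here. Each call of the 2 deposited peak lists carries a signal value from the authors, and the deposited file of the cut rate holds false discovery rates (q-values) under 0.05. Footprint files carry 0.01 on every line, which was not used as a measurement. Reads of both parental genomes were placed on 1 reference, and the effect on signal values was not tested.

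Genes were those of GENCODE M21 (basic transcripts for TSS groups) on the GRCm38 genome. Tied values share their mid-rank in percentiles. Intervals are exact (Clopper-Pearson or Poisson) at 95% and cover counting error only. Overlap and consensus functions recovered all simulated answers. Python 3.11.15, numpy 2.4.6, pandas 2.3.3, scipy 1.17.1 and matplotlib 3.10.9 were used.

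The members, lists and consensus sequences were chosen with earlier results of these data known, so nothing was tested. Values were given for the members, for all promoter DHSs of the members and the 2 strongest distal DHSs per locus by geometric mean, for the 2 list genes with the highest mean percentile and for the 2 nearest to each member; other values were chosen after they were seen. Some genes of the lists are counted but not reported here by name. Alternatives were the lenient list, each library alone, other windows, flanks, overlaps and mismatches, and, chosen after seeing the data, calls under 0.3 left out.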

Additional observations from a re-analysis of the deposited data

How the results depend on the processing

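Of the values computed under the alternatives, 72 stayed within the set limits and 24 moved. The limits were the exact interval for shares, the standard deviation between libraries for promoter percentiles and a fixed ratio for counts. That interval treats calls and footprints as independent. Some of the 72 could not move. Leaving out a library cannot shift a promoter percentile past that standard deviation, and footprint numbers do not depend on the overlap asked between footprints. All 4 starts kept a DHS under each alternative run on them (a shared one, or a call of the single library used), and so did 32 to 37 of the list genes. Each library alone, a wider promoter window, the full annotation and leaving out calls under 0.3 could not lose a start. All 4 already had calls of both libraries above 0.3 within 1 kb. Nor could the list genes fall under 32 with a library alone or a wider window. The distal counts of Slc12a2, Slc12a5 and Slc12a7 were 2, 8 and 4 in the lenient list, 0, 4 and 0 with flanks of 10 kb, and 2, 11 and 1 with flanks of 100 kb. With the stronger 50% of the calls Slc12a5 had 4. Each library alone gave 1 to 2 for Slc12a2, 11 to 19 for Slc12a5 and 2 for Slc12a7 with either library; the 19 came from replicate 2 and the 11 from replicate 1. The shares of calls overlapped were 57.1% and 41.0% in replicates 1 and 2 with a reciprocal overlap of 50%, and 68.2% and 100% with the stronger 50% of the calls. The share of replicate 1 footprints overlapped was 44.1% with a reciprocal overlap of 50%. In the lenient list the mean percentile of Slc12a5 was 40.8 and that of Slc12a7 12.9. DHSs with RE1 matches (up to 2 mismatches) numbered 3 of 20, against 3 to 5 in either library alone and 1 in the central 150 bp. Such matches lay in 19.5% of all promoter and 11.2% of all distal DHSs. In the central 150 bp the shares were 6.76% and 6.11%. DHSs with an exact CTCF match numbered 0, against 2 in the lenient list and 0 to 1 in either library alone, and 3 with 1 mismatch. RFX matches were in 11 DHSs with 1 mismatch. The cause of these shifts was not tested beyond the settings themselves. No paired analysis was possible because the study has 1 group. The depth is only implied, a signal value of 0.3 stands for different tag numbers in the libraries, and with 2 libraries no spread between animals can be estimated. Peak calls do not measure transcription, and no earlier or later age is at hand here.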
